A study of Mus musculus with 142 samples.

Results

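Replication timing (RT) of the Dppa domain was examined on musculus homologs that had lost all 3 promoters of the domain, A, B and C, while 6 nearby binding sites for the pluripotency factors OCT4, SOX2 and NANOG (OSN sites) were kept. The piece deleted at A also holds an OSN site, A-OSN-2, so that not only promoters were lost there. The musculus profiles of the 3 ATSS.BTSS.CTSS clones, A1, A8 and C4, were chosen, each made from 1 early and 1 late S-phase fraction, so that 6 of the 142 samples of the series entered. They were set against the unmodified musculus homolog of 2 other clones, CTSS clone C4 and CR11.8k clone 50, so that the same strain stood on both sides. All clones came from F121-9 cells, F1 hybrid mouse embryonic stem cells with 1 homolog of each chromosome from a musculus strain and 1 from castaneus, grown in 2i + LIF and labelled with BrdU for 2 h. In each ATSS.BTSS.CTSS clone the castaneus homolog also lacked the A promoter, so this promoter was gone from both homologs. The control clones carried their deletions on castaneus alone, of the C promoter in CTSS clone C4 and of a piece in the right part of C in CR11.8k clone 50. No musculus homolog was at hand that was unmodified beside a castaneus homolog lacking the A promoter, so an effect in cis and the loss of A on both homologs cannot be told apart. Each clone grew from a single cell, the clone was taken as the replicate, and 3 against 2 clones limits the precision. The paper made several compound genotypes stepwise, in cells that already carried a deletion. Where clones of a genotype share a parent, their spread leaves out differences between parents. CTSS clone C4 had 2 pairs of early and late samples. CR11.8k clone 50 had 2 profiles, although 1 pair of samples is listed. Each set of 2 was averaged, and the labels do not say whether separate cultures were used.

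RT describes when in S phase a stretch of DNA is copied, and it is given here as log2 of early over late reads, so that values above 0 mean early and values below 0 late replication. Early replication control elements are segments that a domain needs to be copied early. They carry promoter and enhancer marks, and in embryonic stem cells they bind the pluripotency factors. The Dppa domain lies between late-replicating stretches and holds Dppa2 and Dppa4, which encode small chromatin proteins of pluripotent cells, and Morc1, which encodes an ATPase needed in the male germ line.

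The guides that bounded the 3 deletions are shown because the whole comparison rests on these cuts. Each had a single match in chromosome 16 of mm10, and the capitals mark the PAM next to which Cas9 cuts.
A-TSS-G1: tagacactctgtaacacagaAGG
A-TSS-G2: ctggcttccgaggaactgcgTGG
B-TSS-G1: cacgcctacgtccacgcgtaCGG
B-TSS-G2: tggaaactcacgaattcgcgTGG
C-TSS-G1: ttctggccatgtttggttagAGG
C-OSN-1-G1: gagtaactcaggcaaaacgtTGG

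The A guides lie on the plus strand at chr16:48309943-48309965 and chr16:48310609-48310631. Cuts 3 bases before each PAM remove chr16:48309960-48310625, 666 bp with a GC content of 43.7% and 11 CpG dinucleotides. This piece holds the start of the Dppa2 transcript ENSMUST00000097175 at position 48310477, with UTR and coding bases of its exon 1. The B guides lie on the minus strand at chr16:48431251-48431273 and chr16:48431391-48431413 and remove chr16:48431257-48431396, 140 bp with a GC content of 56.4% and 8 CpG. It lies inside exon 1 of Morc1 and takes 84 bases of UTR and 56 coding bases. The C guides lie at chr16:48611106-48611128 on the plus strand and chr16:48613166-48613188 on the minus strand. They remove chr16:48611123-48613171, 2049 bp with a GC content of 44.6% and 18 CpG, inside Morc1, with the 73 coding bases of its exon 21. No transcript of the annotation starts in the B or C piece. The annotated start of Morc1, at 48431237, lies just left of the B piece. Another Dppa2 transcript starts at 48303908, left of the A piece. The 3 pieces add up to 2855 bp spread over 303212 bp. The kept OSN sites lie close to them, with B-OSN-1 at -8.80 kb and B-OSN-2 at 4.48 kb from the B piece, and with C-OSN-1 directly next to the C piece.

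RT was lower over most of the domain once the 3 promoters were gone, but the core stayed early. Over the 400 kb core at 48.2 to 48.6 Mb, mean RT was 0.28 in clone A1, 0.37 in clone A8 and 0.21 in clone C4, against 1.02 in CR11.8k clone 50 and 0.98 in CTSS clone C4. All 3 clones lay below both controls. The group means were 0.29 ± 0.08 (SD, n = 3) and 1.00 ± 0.02 (SD, n = 2), a difference of -0.71 ± 0.13 (SE) with a 95% confidence interval of -0.98 to -0.45 (limma with Benjamini-Hochberg adjustment over all 400 kb tiles, adjusted p = 0.00079). Among the 5553 tiles of the genome, 13.0% were called, 202 higher and 521 lower, and the Dppa core ranked number 12 from the lowest difference. Of the 2071 tiles whose control mean was above 0.5, 1 fell further. The median difference of all tiles was -0.08, and 5% of tiles lay below -0.39. An exact two-sided permutation test over the clones gave p = 0.1, the smallest that 3 against 2 allows, so that this test could not pass 0.05.

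**Figure D1:**
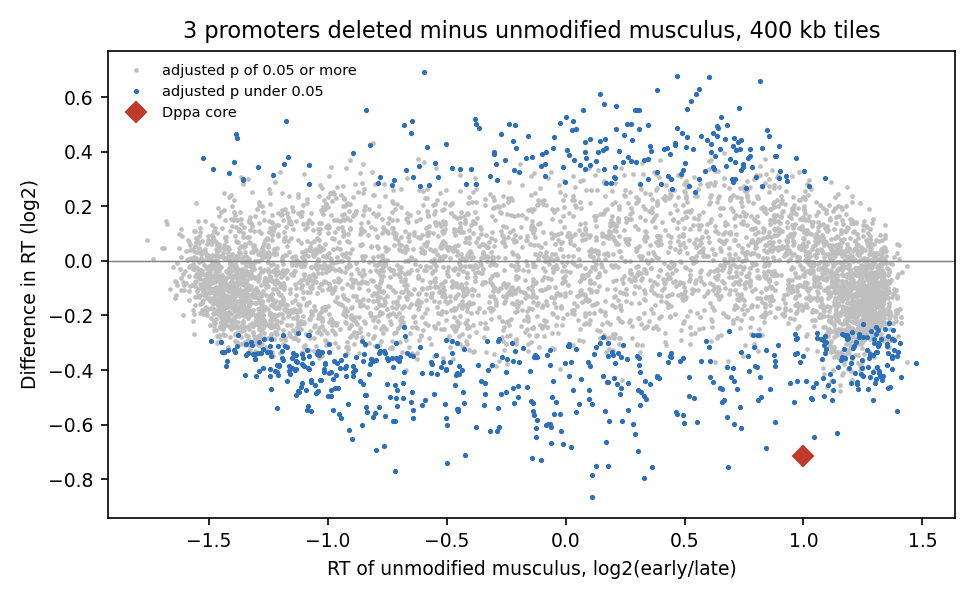
Difference in RT (3 promoters deleted minus unmodified musculus, log2) of each 400 kb tile against the mean RT of the unmodified musculus controls. Blue points are tiles with an adjusted p under 0.05 and the red diamond is the Dppa core, at 1.00 on the horizontal and -0.71 on the vertical axis, near the lower border of the cloud.

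RT stayed above 0 in 7, 8 and 7 of the 8 core windows of 50 kb in A1, A8 and C4, and in all 8 of both controls. Over the wider interval from 47.9 to 49.2 Mb, 10, 13 and 10 windows of 26 were above 0, against 17 and 18 in CR11.8k clone 50 and CTSS clone C4. The counts of the 2 groups did not overlap (exact two-sided permutation test, p = 0.1, the smallest possible). The early stretch around the peak was 355 kb wide in A1, 617 kb in A8 and 482 kb in C4, against 868 kb and 901 kb in the controls (485 ± 131 kb, SD, n = 3, against 884 ± 24 kb, SD, n = 2; exact permutation p = 0.1, the smallest possible). In A1 the stretch ended at a window with an RT of -0.01, at the C promoter, beyond which RT rose again to 0.39, so that its width rests on this 1 window.

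RT crossed 0 on the left at 48.27 Mb in A1, 48.22 Mb in A8 and 48.27 Mb in C4, and at 48.09 and 48.08 Mb in the controls, a mean difference of 0.17 Mb (exact permutation p = 0.1, the smallest possible). On the right it crossed at 48.62, 48.84 and 48.75 Mb, and at 48.96 and 48.98 Mb in the controls (exact permutation p = 0.2), where the crossing of A1 again rests on the 1 window at C. The height of the peak varied most. It was 0.67 in A1, 1.07 in A8 and 0.32 in C4, against 1.15 and 1.16 in the controls (exact permutation p = 0.2). A8 thus reached nearly the control level in 1 window, with 0.76 and 0.40 in the windows on either side, while C4 stayed between -0.16 and 0.32 across the core.

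**Figure D2:**
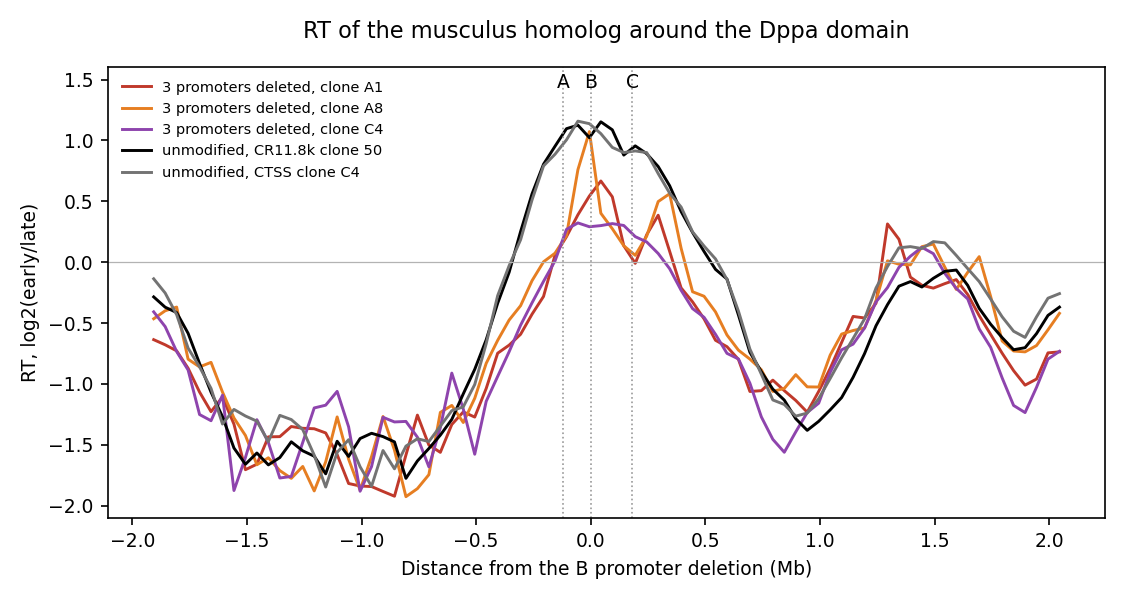
RT of the musculus homolog, log2(early/late), in 50 kb windows against the distance from the B promoter deletion in Mb, with 1 line per clone and dotted lines at the A, B and C deletions. The 3 coloured lines of the deletion clones lie below the black and grey control lines across the domain, apart from clone A8 at B, where it reached 1.07, and meet them in the late stretches on both sides.

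By window, 21 of the 80 windows between 46.5 and 50.5 Mb were called, 20 of them lower and 1 higher (limma, adjusted p under 0.05 over all windows). The lower calls were 25% of the region, and 5.68% of the 44994 windows tested genome-wide were called lower and 2.59% higher. They all lay between 48 and 49.1 Mb, where 20 of 22 windows were called. In 37 of the 80 windows, or 46.25%, all 3 deletion clones lay below both controls, which held for 23.3% of windows genome-wide. In 5 windows they lay above both, which held for 12.3% of windows genome-wide. The number of calls depended on the spread shared with the other clones in the fit. With the 5 clones alone no window was called (limma, lowest adjusted p = 0.14), although 25 of the 80 had an unadjusted p under 0.05, and 9 were called after scaling over shared windows. With 1 control left out, 12 windows were called without CR11.8k clone 50 and 7 without CTSS clone C4, all lower.

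The greatest fall was at 48.20 to 48.25 Mb, on the left side of the core, with RT at -0.28, 0.00 and -0.16 in A1, A8 and C4 against 0.80 and 0.79 in the controls. All 3 clones were lower than both controls, by -0.94 ± 0.14 on average (difference and SE, limma adjusted p = 0.00023). The difference was smaller towards the middle of the domain and greater again at C. It averaged -0.65 over the 4 windows of the left slope at 48 to 48.2 Mb, all of them called, and -0.54 over 48.6 to 49.1 Mb, where 9 of 10 windows were called. Left of the domain, at 47.5 to 48 Mb, it averaged -0.08 with no call. In the late trough from 49.1 to 49.65 Mb it averaged 0.07, again with no call. The only higher call was at 47.25 to 47.30 Mb, in the late flank, where the difference was 0.39 (limma adjusted p = 0.047).

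**Figure D3:**
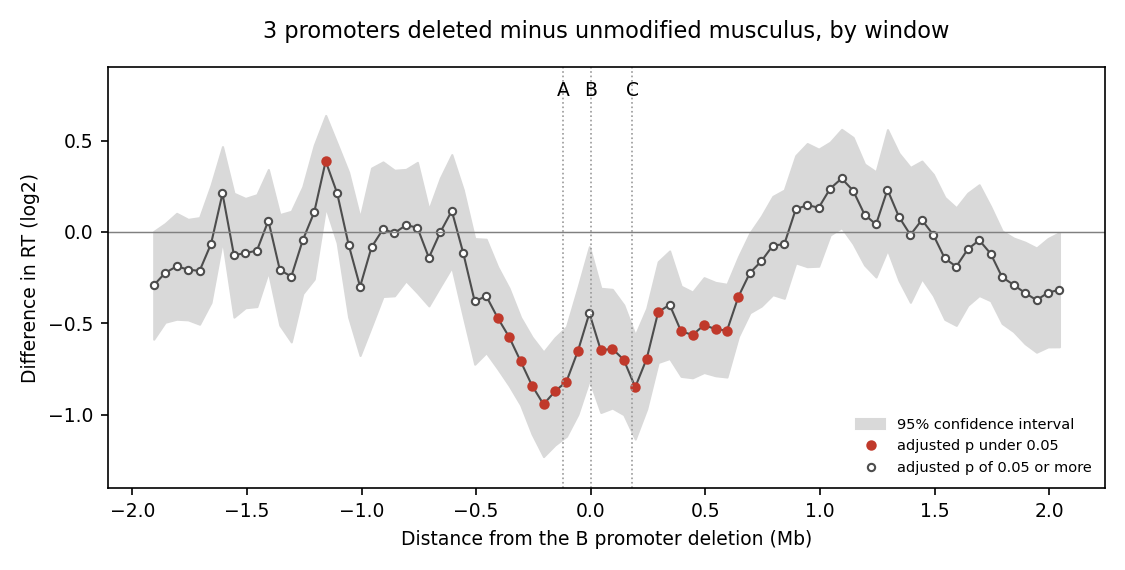
Difference in RT (3 promoters deleted minus unmodified musculus, log2) per 50 kb window against the distance from the B promoter deletion in Mb, with the 95% confidence interval in grey and dotted lines at the 3 deletions. Filled red points are windows with an adjusted p under 0.05. The difference dips to -0.94 left of A and to -0.85 at C, and is -0.44 at B.

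The windows of the 3 deleted promoters differed among themselves. The A window, at 48.30 to 48.35 Mb, holds the start of Dppa2. Its RT was 0.21 in A1, 0.22 in A8 and 0.27 in C4, against 1.10 and 1.00 in the controls. The 3 clones lay within 0.03 (SD) of one another and all below the controls, and the difference was -0.82 ± 0.15 (SE, limma adjusted p = 0.00097). The C window, at 48.60 to 48.65 Mb, had an RT of -0.01, 0.06 and 0.21, against 0.96 and 0.91 in the controls. This left C near the border between early and late in A1 and A8, with a mean difference of -0.85. The B window, at 48.40 to 48.45 Mb, holds the starts of Morc1 and of Gm5485. Its RT was 0.54 in A1, 1.07 in A8 and 0.29 in C4, against 1.02 and 1.14 in the controls. A8 lay between the 2 controls there, the SD of 0.40 was the highest of the region, and the difference of -0.44 was not called (limma adjusted p = 0.11). The position of A8 there rests on 1 window, with 0.76 and 0.40 in the windows on either side. Both of those windows were called, each with a difference of -0.65 (limma adjusted p = 0.015 and 0.014). B and C lost their promoters but kept 2 and 3 OSN sites, and A kept A-OSN-1 but lost A-OSN-2.

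Dppa4, whose own promoter was not deleted, lies left of A. In the window of its start RT was 0.06 in A1, 0.07 in A8 and 0.01 in C4, against 0.95 and 0.89 in the controls. The clones were alike and all far below the controls, with a difference of -0.87 ± 0.15 (SE, limma adjusted p = 0.00044). RT is no measure of transcription, and RNA was not analysed here.

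Right of the core, 6 of 7 genes up to 49.1 Mb start in windows called lower, 4 windows in all, beside the 5.68% of windows called lower genome-wide. Trat1, which encodes an adaptor of the T cell receptor, had an RT of 0.09, 0.56 and -0.05 in A1, A8 and C4 against 0.63 and 0.57 in the controls. A8 was again close to the controls, and the difference of -0.40 was not called (limma adjusted p = 0.077). Retnlb and Retnla, which encode secreted resistin-like proteins, share a window with an RT of -0.21, 0.11 and -0.23 against 0.42 and 0.45. This window was late in 2 of the 3 clones, and its difference was -0.54 (adjusted p = 0.0049). At Retnlg, another gene of that family, RT was -0.33, -0.24 and -0.38 against 0.24 and 0.25, so that it was late in all 3 clones and early in both controls (difference -0.56, adjusted p = 0.0025). Dzip3, which encodes a ubiquitin ligase, and Cip2a, which encodes an inhibitor of the phosphatase PP2A, start in 1 window that differed by -0.53 (adjusted p = 0.0075). Myh15, a myosin heavy chain gene, starts in the last window called, where the difference was -0.35 (adjusted p = 0.034).

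The next peak of RT to the right, which lay near 0 in both groups, held no window called by limma, and none of its 8 windows had an unadjusted p under 0.05. At the start of Ift57, a gene of transport in cilia, the difference was 0.04 (adjusted p = 0.89), with a 95% confidence interval of -0.25 to 0.33. At Cd47, which encodes a surface protein that blocks uptake by macrophages, it was -0.02 (adjusted p = 0.97), with an interval of -0.38 to 0.35. At Bbx, an HMG-box gene, RT was -0.74, -0.56 and -0.80 against -0.44 and -0.30, lower in every clone. The difference of -0.33 there was not called (adjusted p = 0.15). Of the 9 windows on the Bbx side, from 50.05 to 50.5 Mb, none was called by limma, 5 had an unadjusted p under 0.05, and their mean difference was -0.24. Of the 14 genes of the region described, the windows of Dppa4, Dppa2, Retnlb and Retnla, Retnlg, Dzip3 and Cip2a, and Myh15 were lower, and none was higher.

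The area between each profile and the mean control curve sums the difference over 47.5 to 49.5 Mb, in RT units times 50 kb steps. It was -15.5 in A1, -11.2 in A8 and -17.0 in C4. Each control lay 0.14 from the mean of both, a distance equal by construction and no measure of the spread between clones. The mean was -14.5 ± 2.99 (SD, n = 3; exact two-sided permutation test, p = 0.1, the smallest possible). The area was greatest in C4, the clone with the lowest peak, and smallest in A8.

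Loss of the A promoter on top of B and C was assessed against the 3 BTSS.CTSS clones, C11, G3 and H11, in which the musculus homolog kept the A promoter. The castaneus homolog of C11 also lacked the B promoter. The core mean was 0.28 in C11, 0.65 in G3 and 0.35 in H11, and so overlapped with the 0.21 to 0.37 of the triple deletion. The difference was -0.14 ± 0.12 (SE), with a 95% confidence interval of -0.39 to 0.10, and was not called (limma adjusted p = 0.35), in a comparison where 41.5% of tiles were called. The exact permutation test gave p = 0.5. With each profile centred on its own median the difference turned to 0.21 (adjusted p = 0.12). On the left side the calls depended on the centring. As deposited, all 7 windows from 47.90 to 48.25 Mb were called lower in the triple deletion, by -0.57 to -0.35, and after scaling over shared windows 6 were. With each profile centred on its own median none of them was called, with differences of -0.21 to 0.01. The left edge of the early stretch, in the values as deposited, lay at 48.22 to 48.27 Mb against 48.14 to 48.15 Mb (exact permutation p = 0.1, the smallest possible). In all, 16 of the 59 windows tested in the region were called lower and none higher, or 27.1%, where 18.9% were called lower genome-wide. These calls were not confined to the domain. Some lay further left, in the windows from 47.05 and 47.65 Mb. Others lay on the right, in the windows from 50, 50.15, 50.2, 50.25 and 50.3 Mb. After scaling over shared windows 15 were called lower and 1 higher. With own-median centring the direction turned, with 16 windows called higher and 1 lower, so that the direction depended on the choice of scale. With only these 6 clones in the fit, or without A1 or C4, 10 were called. Of the 8 core windows 1 was called, at 48.20 Mb, and the C window was lower by -0.36 (adjusted p = 0.023). The A window differed by -0.19 and was not called (adjusted p = 0.27).

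The profiles of the 2 genotypes were not alike elsewhere either. BTSS.CTSS profiles held a value in 74.4% to 81.5% of windows and triple profiles in 93.2% to 93.4%. The 5th percentile of RT outside chromosome 16 lay at -1.31 to -1.12 in BTSS.CTSS and at -1.73 to -1.72 in the triple deletion. The median step between neighbouring windows was 0.09 to 0.10 in BTSS.CTSS and 0.12 to 0.14 in the triple deletion. The unmodified musculus controls, CR11.8k clone 50 and CTSS clone C4, differed from the triple deletion too. Their 5th percentile lay at -1.55 and -1.53 and their median step was 0.11 and 0.10, with a value in 93.2% and 92.3% of windows. The part of these differences in the calls was not tested beyond the alternatives of scaling.

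A partly reversed arrangement is given by A.BOSN12.COSN123, in which musculus lacked element A and the OSN sites of B and C while the B and C promoters remained. Element A includes the A promoter, so this promoter was lost in both genotypes. The contrast is thus not one of promoters against OSN sites alone. The core mean of A.BOSN12.COSN123 was -0.32 in clone A6 and -0.39 in clone C11, with none of the 8 core windows above 0. Every triple-deletion clone was earlier than both, by 0.64 ± 0.13 on average (SE, 95% confidence interval 0.37 to 0.91, limma adjusted p = 0.00068), in a comparison where 28.1% of tiles were called. The exact permutation test gave p = 0.1, the smallest possible. At the B window RT was -0.35 and -0.41 in A.BOSN12.COSN123, below each of the 3 triple-deletion clones, and at the C window -0.75 and -0.63. At Dppa4 RT was -0.10 and -0.28 in A.BOSN12.COSN123, below the 0.01 to 0.07 of the triple deletion. With only the B promoter removed, BTSS clone A10 had a core mean of 0.56, and with only the C promoter removed from musculus, CTSS clone C12 had 0.91, each from 1 clone. The 2 pairs of samples of CTSS clone C12 stood at 0.68 and 1.14.

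**Figure D4:**
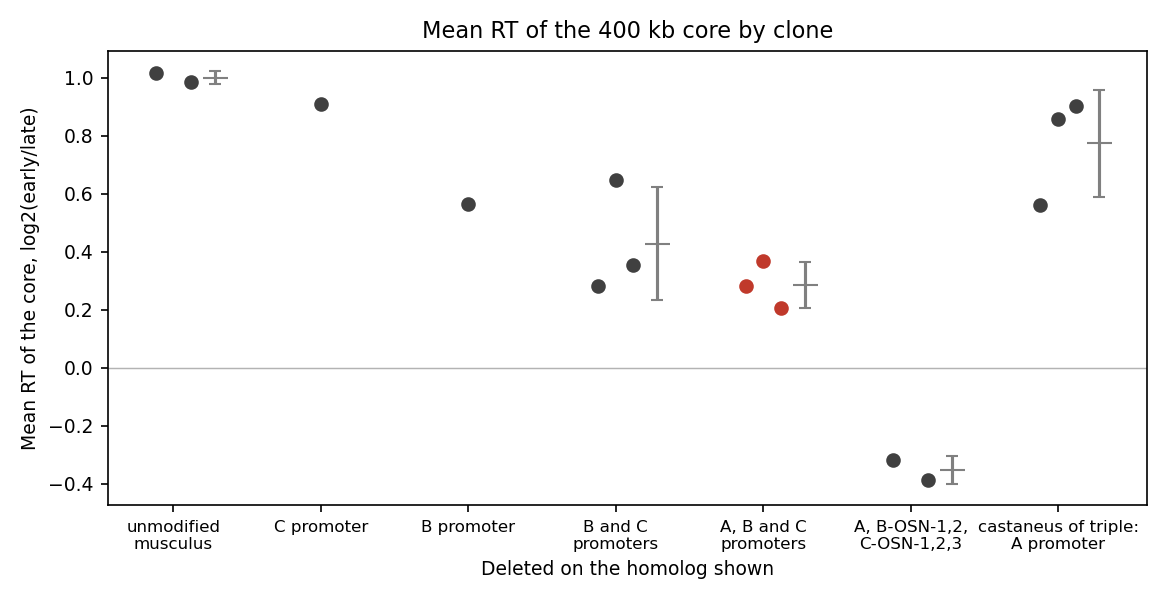
Mean RT of the 400 kb core, log2(early/late), with 1 point per clone, grouped by what was deleted from the homolog shown, and bars of the mean ± SD where there was more than 1 clone. The 3 triple-deletion clones, in red, lie between 0.21 and 0.37, overlapping with the B and C promoter deletion. They lie above A.BOSN12.COSN123, which lacked element A with its promoter and the OSN sites of B and C.

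On the castaneus homolog of the same 3 clones, which lacked the A promoter alone, the core mean was 0.56 in A1, 0.86 in A8 and 0.90 in C4. The 42 unmodified castaneus alleles with a value there ranged from 0.70 to 1.30 with a median of 1.02, so that A1 lay below all of them and the other 2 clones inside their range. The difference was -0.23 ± 0.08 (SE, limma adjusted p = 0.022, exact permutation p = 0.0078), in a comparison where 29.1% of tiles were called. It was -0.12 without A1 (adjusted p = 0.40) and -0.056 when each profile was centred on its own median (adjusted p = 0.72). In each clone the musculus homolog was later than castaneus, by -0.49 on average (limma adjusted p = 5.8e-05). In that comparison 2162 of 5647 tiles were called. The test was of the difference against 0, so that differences in RT between the strains enter it.

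Outside the region, the tiles that fell most lay on chromosome 1 from 14.2 Mb, which holds the start of Eya1, by -0.86, on chromosome 12 from 20.6 Mb with Asap2, by -0.80, and on chromosome 6 from 60.2 Mb, with no protein-coding start, by -0.78. The tiles that rose most held Hs3st3a1 and F930015N05Rik on chromosome 11 (0.69), Cdhr3, Atxn7l1 and Efcab10 on chromosome 12 (0.68), and A530016L24Rik, Tmem179 and Inf2 on chromosome 12 (0.67). The deleted domain was thus not the only place where these clones differed from the controls. Profiles outside chromosome 16 correlated across windows at r = 0.95 to 0.96 among the triple-deletion clones, 0.98 between the controls and 0.93 to 0.97 between the groups. The repeat profiles of CR11.8k clone 50 correlated at 0.96. Windows are not independent replicates.

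Windows at the starts of 11 pluripotency genes were read as a check of the cells' state. Of these 1 was called, lower, beside 5.68% of all windows called lower and 2.59% higher, and 2 had an unadjusted p under 0.05. The call was at Zfp42, with an RT of 0.07, 0.31 and 0.75 in A1, A8 and C4 against 0.93 and 1.18 in the controls (difference -0.68, limma adjusted p = 0.0021). The median difference of the 11 was -0.19, with a range of -0.68 to -0.05, and the median of all windows tested was -0.07. Of 8 lineage genes that are silent in stem cells, 1 was called, lower, at Pax6 (-0.46, adjusted p = 0.034), 3 had an unadjusted p under 0.05, and their median was -0.02. Each of these counts rests on 1 window. DPPA2 and DPPA4 are known to act on Zscan4 genes and Zfp352. Of 4 such genes listed 2 could be tested, Zscan4d (-0.51, adjusted p = 0.11) and Zfp352 (-0.43, adjusted p = 0.17), and neither was called, both with an unadjusted p under 0.05. Of the 3 other MORC genes, relatives of Morc1, none was called, and 1 had an unadjusted p under 0.05.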

How the data were processed

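E/L Repli-seq of F121-9 clones was used. The authors sorted BrdU-labelled cells into an early and a late part of S phase, aligned the reads to N-masked mm10, assigned them to homologs (musculus, strain 129, is genome1 in the headers and castaneus, CAST, genome2), counted them in 50 kb windows and scaled, quantile-normalized and loess-smoothed (300 kb) the ratios. The deposited values are log2(early/late). Trim Galore, cutadapt and bedtools are named in the submitters' processing notes. Depth is unknown, so precision rests on the spread between clones. All 138 value columns, over 49264 windows of 19 autosomes, were read, and repeat profiles of a clone were averaged.

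limma 3.58.1 in R 4.3.3 was fitted on all 53 clones with a musculus profile, with 1 coefficient per genotype, over windows and over 400 kb tiles (8 windows, at least 6 with a value), two-sided with Benjamini-Hochberg adjustment and a threshold of 0.05. Smoothing makes neighbouring windows dependent, so the tile gives 1 value for the core. Castaneus profiles were fitted apart, with 43 unmodified alleles. The limma fit was tested on simulated data. Exact permutation tests over clones in the values as deposited numbered 15, those of the alternatives left aside, and after Benjamini-Hochberg adjustment over them the lowest p was 0.12. Edges are where RT first reached 0 on either side of the peak, by linear interpolation between window centres. Deleted pieces were placed by matching the guides to mm10 and cutting 3 bases before the PAM, and genes are those of GENCODE vM21. Named windows were those of the 3 promoters, of the greatest difference in each direction and of the starts of the region's protein-coding genes, with the 3 tiles of greatest change in each direction and fixed lists of loci. The members and lists were chosen with earlier results of these data known. The alternatives tried were the clones in the fit, libraries as units, other control alleles, centring, scaling, other intervals, the filter on missing values, a robust prior and leaving out each clone. Scaling over shared windows, and all alternatives for the castaneus homolog and for windows against BTSS.CTSS, were chosen after seeing the data.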

Additional observations from a re-analysis of the deposited data

How the results depend on the processing

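Of 66 alternatives, 54 kept direction and side of the threshold. The core difference from controls kept both in all 12, and with unmodified musculus as control it ran from -0.76 to -0.62. Against all unmodified alleles, mostly castaneus, it was -0.72. Against the castaneus homolog of the same clone, which lacked the A promoter, it was -0.49. The core difference from A.BOSN12.COSN123 kept both in all 9. The count of 21 windows called went to 0 with only the 5 clones in the fit, to 9 after scaling over shared windows (chosen after seeing the data), and to between 7 and 24 when 1 clone was left out. It was 12 without CR11.8k clone 50 and 7 without CTSS clone C4, where the lone control is assumed to vary like the other groups. The core difference from BTSS.CTSS reversed to 0.21 (adjusted p = 0.12) when each profile was centred on its own median, and was -0.13 after scaling over shared windows. Medians over the 33195 shared windows were 0.30 to 0.37 in both genotypes, whereas medians over all windows with a value were 0.14 to 0.31 in BTSS.CTSS and near -0.15 in the triple deletion. The count of 16 windows against BTSS.CTSS went to 10 with only these clones in the fit and to between 10 and 14 without 1 clone (10 without A1 and 10 without C4). With own-median centring 17 were called but the direction reversed, to 16 higher and 1 lower. The castaneus difference became -0.056 after centring (adjusted p = 0.72) and ranged from -0.29 to -0.12 without 1 clone, with the call lost without A1. The area was -19.1 against all 44 unmodified alleles with a value, mostly castaneus (exact permutation p = 6.2e-05), and -16.2 to -13.3 without 1 clone. It was smaller in size, at -10.9, with each profile centred on its own median, and -11.5 after scaling over shared windows. Against the castaneus homolog of the same clone it was -12.95, and over 48 to 49 Mb alone -12.3. The cause was not tested. No paired analysis was possible because the ATSS.BTSS.CTSS clones carry no replicate numbers in the labels that would pair them with clones of another genotype. The only pairing at hand, that of the homologs within a clone, was run as an alternative. There the core difference was -0.49 (limma adjusted p = 5.8e-05). The number of clones, 3 against 2, and unknown depth limit every statement.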
